A study of Rattus norvegicus with 12 samples.

Results

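Transcript levels of 4 G protein-coupled receptor genes were followed across the dyskinetic rat striatum: Sstr2 (a somatostatin receptor), Hcrtr1 (an orexin receptor), Htr1b (a serotonin receptor) and Oprl1 (the nociceptin receptor). They are 4 of the 9218 genes named in the deposited values, and each was read by 1 of the 13375 probes there (ILMN_1362580, ILMN_1367383, ILMN_1360702 and ILMN_1369970). The genes were picked because their levels differed between the groups, so the size of that difference is given for each as a description and carries no test. The 12 one-colour Illumina arrays, 1 per sample, covered striatal tissue of parkinsonian rats. In 6 of these, called LID, the rats were dyskinetic after chronic L-DOPA methyl ester (25 mg/kg) together with benserazide (6.25 mg/kg), which keeps levodopa from being converted outside the brain. The other 6, called PD control, came from rats with the same disease model and no levodopa. RNA was collected on day 8 after the chronic treatment. Both groups carry the parkinsonian model, and no array represents an intact rat or a rat given levodopa without dyskinesia, so that drug and movement cannot be told apart. How parkinsonism was produced, the strain, sex and age of the rats, and whether each sample was a separate animal are not stated in the labels, so the errors measure the spread between samples.

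Somatostatin, nociceptin and serotonin acting at these receptors signal mainly through inhibitory Gi/o proteins, which lower cAMP, open potassium channels and reduce transmitter release. The orexin receptor instead couples mainly to Gq and phospholipase C and excites the cells that carry it. Somatostatin in the striatum is made by a class of local interneurons, serotonin and orexin arrive along axons from the brainstem and the hypothalamus, and nociceptin is made by scattered striatal and cortical neurons. The serotonin receptor gene Htr1b is transcribed in striatal output neurons, and its protein is carried to their terminals, where it limits transmitter release. In the dopamine-depleted striatum levodopa acts in part through D1 dopamine receptors, which raise cAMP in the output neurons of the direct pathway. CREB, a transcription factor activated by cAMP, binds the sequence called the cAMP response element (CRE).

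RefSeq promoter windows (assembly GRCr8, 250 bases before to 50 after the annotated start) were matched by symbol for 3 of the 4 genes and are shown because the 3 receptors that were higher in LID can be compared in them. The windows lie at chr10:99163103-99163402 on the plus strand for Sstr2, at chr5:147770801-147771100 on the minus strand for Hcrtr1 and at chr8:91414766-91415065 on the minus strand for Htr1b. Capitals mark the full CRE in Sstr2 and only its first 5 bases in Hcrtr1, which lacks the full element. Each window is written 5′ to 3′ along the gene.
Sstr2: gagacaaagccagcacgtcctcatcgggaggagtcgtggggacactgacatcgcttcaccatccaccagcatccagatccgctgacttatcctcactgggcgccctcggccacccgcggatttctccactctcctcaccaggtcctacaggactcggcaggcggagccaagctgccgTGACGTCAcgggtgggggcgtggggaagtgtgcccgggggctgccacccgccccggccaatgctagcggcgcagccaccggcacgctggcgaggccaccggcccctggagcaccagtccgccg
Hcrtr1: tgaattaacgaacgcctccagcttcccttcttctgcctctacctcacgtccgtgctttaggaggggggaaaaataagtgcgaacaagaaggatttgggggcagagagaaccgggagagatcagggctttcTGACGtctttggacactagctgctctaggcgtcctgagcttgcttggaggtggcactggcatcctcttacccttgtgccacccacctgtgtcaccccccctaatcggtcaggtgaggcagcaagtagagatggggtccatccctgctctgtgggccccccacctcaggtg
Htr1b: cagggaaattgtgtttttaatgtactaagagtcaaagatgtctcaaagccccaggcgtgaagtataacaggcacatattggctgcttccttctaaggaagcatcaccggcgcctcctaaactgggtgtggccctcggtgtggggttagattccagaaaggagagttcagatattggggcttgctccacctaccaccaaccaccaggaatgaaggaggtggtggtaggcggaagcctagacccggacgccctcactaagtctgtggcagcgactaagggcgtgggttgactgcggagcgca

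The full 8-base CRE (TGACGTCA, the same on both strands) is in the Sstr2 window, with its first base at position -73 from the start. It is present in 1.83% of 33469 RefSeq windows of the same length. The first 5 bases of that element, TGACG, are held by 21.2% of windows on either strand. In the Hcrtr1 window they begin at position -120, and in the Sstr2 window they are part of the full element. Neither the 5-base nor the 8-base form is in the Htr1b window. The AP-1 sequence TGANTCA, searched on both strands and found in 7.33% of windows, was in none of the 3. A match describes the letters in the window, and the motifs were chosen after the levels were known.

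Sstr2 encodes the receptor subtype that binds somatostatin-14 and somatostatin-28 and is the target of octreotide. Its deposited intensity ran from 170.9 in PD control replicate 1 through a median of 247 to 463 in replicate 3. In LID it ran from 514 in replicate 2 through a median of 1067 to 2169 in replicate 4. The groups did not overlap, although the 2 brightest PD control arrays, replicates 3 and 6 at 463 and 461.9, came close to the dimmest LID array. On the normalized log2 scale the group means were 8.14 in PD control and 9.96 in LID, a difference of 1.82 ± 0.34 (SE, n = 6 per group) or 3.53-fold. Only 4 of the 9218 genes had a larger rise. The spread between arrays was wide in both groups (SD 0.60 log2 units in PD control and 0.74 in LID).

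Hcrtr1 encodes the receptor that prefers orexin A over orexin B. In PD control it was dim, at 53.9 to 75.7 with a median of 68.4, on arrays whose lowest value for any probe was 36.5. In LID it ran from 135.4 in replicate 1 through a median of 163.7 to 348.6 in replicate 4. The LID arrays were uneven: replicates 3 and 4 at 309.8 and 348.6 stood above replicate 5 at 189.6, while replicates 1, 2 and 6 lay together between 135.4 and 137.8. Every LID array was brighter than every PD control array. The log2 means were 6.16 and 7.64, which is 1.48 ± 0.22 apart (SE, n = 6 per group) or 2.78-fold, and 5 genes had a larger rise. The SD was 0.17 log2 units in PD control and 0.61 in LID.

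Htr1b encodes the serotonin 1B receptor, a presynaptic receptor and a target of triptans. Its intensity in PD control was also dim, between 62.5 in replicate 3 and 83.0 in replicate 5, with a median of 69.3. The LID arrays ranged from 120.4 in replicate 2 to 203.3 in replicate 4 and had a median of 150.6. No array of either group reached the range of the other. On the log2 scale PD control averaged 6.23 and LID 7.28, a difference of 1.04 ± 0.12 (SE, n = 6 per group) or 2.06-fold. The SD was 0.15 log2 units in PD control and 0.28 in LID, and 20 genes had a larger rise.

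Oprl1 encodes the receptor for nociceptin, also called orphanin FQ, which is related to the classical opioid receptors but does not bind their peptides with high affinity. It was lower in LID, and by less than the other 3 were higher. PD control arrays ran from 104.7 in replicate 5 through a median of 139.9 to 179.9 in replicate 3. LID arrays were packed between 97.4 in replicate 1 and 114.3 in replicate 5, with a median of 104.6. The groups overlapped: 3 LID arrays were below the lowest PD control array, and 3 were within the PD control range. The means were 7.17 in PD control and 6.80 in LID, so that the log2 difference was -0.37 ± 0.10 (SE, n = 6 per group), and 187 genes had a larger fall. The SD was 0.24 log2 units in PD control and 0.09 in LID.

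**Figure D1:**
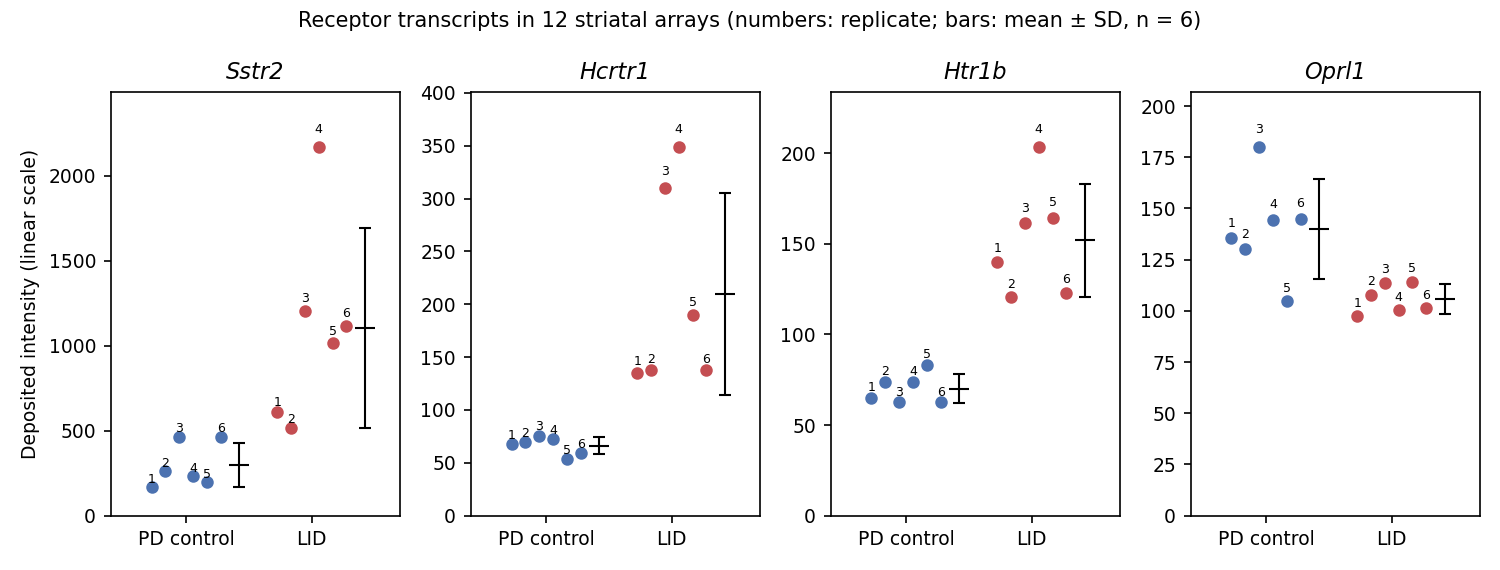
Deposited intensity (linear axis from 0) of Sstr2, Hcrtr1, Htr1b and Oprl1 on each array, with the replicate number beside each point and the mean ± SD of 6 arrays per group as a bar. LID and PD control are apart for the first 3 genes, with LID replicate 4 highest in each, while for Oprl1 PD control replicate 5 at 104.7 lies among the LID arrays.

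The groups were apart for 3 of the 4 receptors, each higher in LID, where 3.89% of all genes were higher in LID with no overlap between groups. Since the genes were picked from this contrast, nothing is read from that count. Because the tissue was whole striatum, more RNA per cell and more cells of a type cannot be told apart. The low level of Hcrtr1 and Htr1b in PD control bears on their folds. With an offset of 1 in place of 50 in the background correction, their log2 differences were 2.76 and 2.03, and that of Oprl1 was -0.60. That of Sstr2, which was brighter in both groups, was 2.04. On log2 of the deposited values the 4 differences were 1.84, 1.55, 1.10 and -0.39.

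Some arrays differed in tissue markers, scored as the mean of a list after each gene was standardised over the 12 arrays. The deposited values held striatal transcripts on every array, with Penk between 12790 and 20789 and Adora2a between 5060 and 8722. PD control replicates 3 and 6 had the highest cortical excitatory scores (0.92 and 0.96, against -0.45 to -0.07 in the other 4 controls and -0.73 to 0.47 in LID). Replicate 1 of PD control had a choroid plexus and ependymal score of 1.96, the highest of all arrays. These 3 arrays also had the lowest scores for striatal projection neurons (-1.55, -1.06 and -0.81). Within PD control, Sstr2 was at its lowest in replicate 1 and at its highest in replicates 3 and 6. Htr1b was lower in these 3 arrays (62.5 to 65.0) than in the other controls (73.7 to 83.0). Without these 3 arrays the log2 difference of Sstr2 was 2.08, that of Hcrtr1 1.50, that of Htr1b 0.91 and that of Oprl1 -0.24. The size of the Oprl1 difference thus shrank most, and leaving out PD control replicate 3 alone gave -0.30. The part of cortical and choroid plexus tissue in these levels was not tested.

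**Figure D2:**
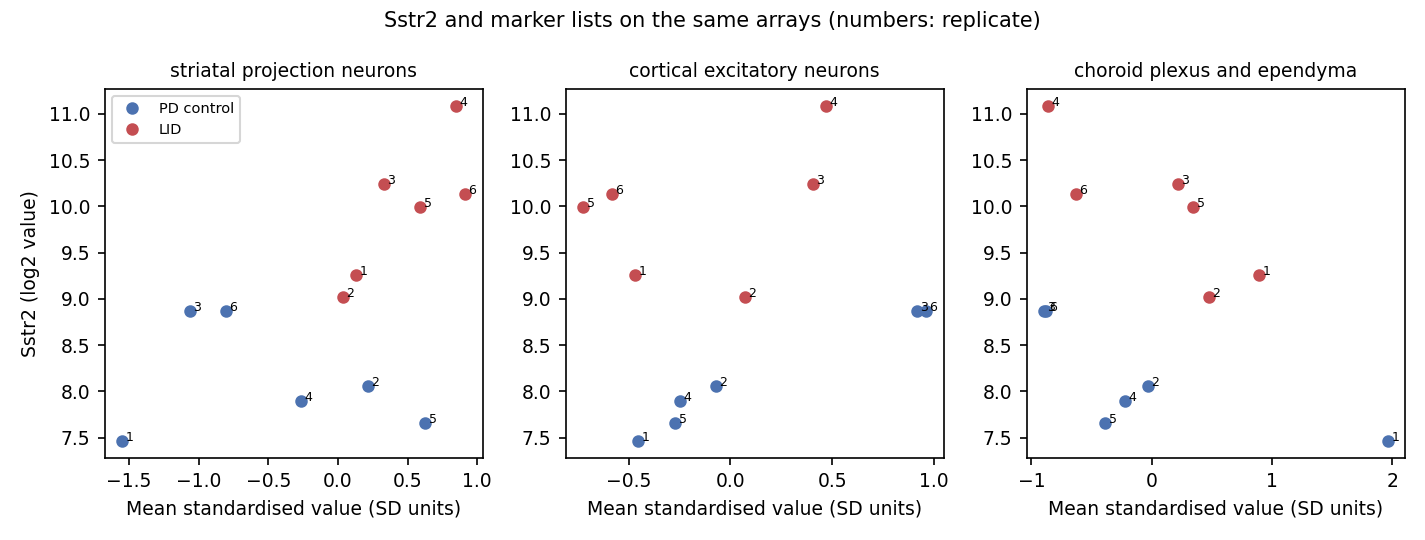
Log2 level of Sstr2 (vertical axis) against the mean standardised value, in SD units, of markers of striatal projection neurons, cortical excitatory neurons and choroid plexus with ependyma, 1 point per array with its replicate number. Within PD control, replicates 3 and 6 are highest in both Sstr2 and the cortical score, and replicate 1 is lowest in Sstr2 and highest in the choroid plexus score at 1.96.

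Markers of several cell types moved in the same comparison. The marker genes named in this paragraph were picked out after their values were seen. Of 7 measured markers of direct-pathway neurons, 4 rose (Pdyn, Tac1, Drd1 and Ebf1) and none fell in limma's test over all probes (Benjamini-Hochberg adjusted p under 0.05), where 7.46% of all genes rose and 6.03% fell. The summed intensity of the 7 was 3972 to 5790 in PD control and 7749 to 11472 in LID. Tac1 was the largest part of these sums (1704 to 2768 and 3799 to 7169). Isl1 (0.17), Chrm4 (0.04) and Sfxn1 (-0.21, limma adjusted p = 0.066) were not called. Without PD control replicates 1, 3 and 6, 2 of the 7 were called higher, in a fit where 524 of 13375 probes rose and 535 fell. The markers of projection neurons in general had 5 of 10 members higher (Strn, Ptpn5, Adcy5, Foxp1 and Meis2), with sums of 21030 to 31988 in PD control and 26184 to 32554 in LID. Without those 3 arrays, which have the lowest scores for this list, 0 of the 10 passed, at a median of 0.15 against 0.28 with all arrays. Those of indirect-pathway neurons had 1 of 6 higher (Necab1), with sums of 18506 to 29786 and 22726 to 27070, and 0 of 6 without the 3 arrays. Interneuron markers had Tac3 and Th higher and Lhx6 lower among 12, with sums of 5834 to 7818 and 7386 to 8898, and without the 3 arrays 1 was higher and 1 lower.

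Among glial and vascular markers, Gjb6, Slc1a2, Mlc1 and Fgfr3 of 10 astrocyte genes were higher (summed intensity 28412 to 34314 in PD control and 31529 to 38457 in LID). Opalin and Cnp of 9 oligodendrocyte genes were lower (16296 to 26564 and 17102 to 24462), as was Aif1 of 8 microglial genes (3015 to 4256 and 2962 to 3868). Egfl7 and Esam were higher and Itm2a was lower among 6 endothelial genes (2111 to 2806 and 2013 to 2352). Of 9 cortical genes Emx2 was higher and Etv1 lower (4906 to 6754 and 6062 to 7701). Most of these sums came from 1 gene, Lamp5 (4037 to 5651 and 5045 to 6388), while the median difference of the list was -0.11. None of 14 choroid plexus and ependymal genes passed or had an unadjusted limma p under 0.05 (887 to 26323 and 1308 to 17753). The calls so far are from the fit to all arrays, where 7.46% of all genes were called higher and 6.03% lower. Without the same 3 arrays, 2 of the 10 astrocyte genes were higher and 5 of the 9 oligodendrocyte genes lower (medians 0.21 and -0.38), while the counts of the other 4 lists in this paragraph were the same. In that fit 524 of 13375 probes were called higher and 535 lower. No marker was at 0 on any array. The part of these cell types in the receptor levels was not tested.

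The partners of Sstr2 were measured in part. Of the somatostatin list, the ligand genes Sst and Cort (somatostatin and cortistatin) and the receptors Sstr1 and Sstr4 were read. Sstr3 and Sstr5 had no named probe among the deposited values. None of the 4 genes read passed the threshold, and none had an unadjusted limma p under 0.05. The intensity of Sst was 1217 to 2367 in PD control and 1483 to 2070 in LID, with a difference of -0.02 ± 0.15 (adjusted p = 0.96) and a 95% interval of -0.34 to 0.30. Cort differed by -0.03 ± 0.32 and Sstr4 by 0.12 ± 0.09. For Sstr1, which was 107 to 401 in PD control and 128 to 222 in LID, the difference was -0.33 ± 0.31 (adjusted p = 0.57). Its interval, -0.99 to 0.34, is wide, and without the 3 PD control arrays named above its difference was 0.01.

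The orexin list held the precursor gene Hcrt and the second receptor Hcrtr2. Neither passed, and neither had an unadjusted limma p under 0.05. Hcrtr2 was 58.5 to 64.6 in PD control and 55.8 to 65.7 in LID, a difference of -0.02 ± 0.05 with a 95% interval of -0.12 to 0.08. Hcrt, which is normally transcribed in the hypothalamus, was 43.4 to 66.5 and 51.5 to 63.2 (0.15 ± 0.08, adjusted p = 0.23). It passed without PD control replicate 1 alone (0.23, adjusted p = 0.013). Both were near the low end of the table and could show little fall.

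Among 14 other genes of serotonin signalling, 1 fell and none rose, a share close to the 6.03% of all genes that fell. That gene was Htr5b, another serotonin receptor gene, at 55.3 to 66.8 in PD control and 52.2 to 57.0 in LID (-0.17 ± 0.05, adjusted p = 0.032). The signal was dim, and the call was lost in 6 of the 12 fits that each left out 1 array. Within the same subfamily as Htr1b, the differences were -0.14 ± 0.06 for Htr1a, -0.13 ± 0.05 for Htr1d and 0.01 ± 0.06 for Htr1f, with adjusted p of 0.14, 0.12 and 0.93. Their intervals were -0.26 to -0.02, -0.25 to -0.02 and -0.12 to 0.14. Htr1d passed without the 3 control arrays (-0.21, adjusted p = 0.028) and without replicate 6 of PD control alone (-0.17, adjusted p = 0.045). Htr2a (0.02 ± 0.06), Htr2c (0.04 ± 0.09), Htr3a (-0.11 ± 0.11), Htr4 (-0.07 ± 0.08), Htr6 (0.04 ± 0.05) and Htr7 (-0.24 ± 0.20) did not pass. Nor did the serotonin transporter gene Slc6a4 (-0.04 ± 0.04), the synthetic enzyme gene Tph2 (0.16 ± 0.08), Maoa (0.11 ± 0.07) or Maob (-0.12 ± 0.08), whose products break serotonin down. The receptors Htr2b, Htr3b and Htr5a had no named probe among the deposited values.

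In the opioid family the ligand of Oprl1 is made from Pnoc. Its intensity was 238.6 to 502 in PD control and 231.3 to 478 in LID (0.14 ± 0.19, adjusted p = 0.70), with an interval of -0.27 to 0.56. The receptors Oprm1 and Oprd1 were dim and differed by 0.01 ± 0.05 and 0.01 ± 0.06, with intervals of -0.10 to 0.13 and -0.11 to 0.14. Oprk1, the receptor of dynorphin, had no named probe among the deposited values. The precursor genes were divided: Pdyn, from which direct-pathway neurons make dynorphin, rose by 1.90 ± 0.14 from 364 to 557 in PD control to 1394 to 2496 in LID (adjusted p = 1.1e-05). Penk differed by 0.15 ± 0.11 and Pomc by -0.11 ± 0.05, and neither passed.

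**Figure D3:**
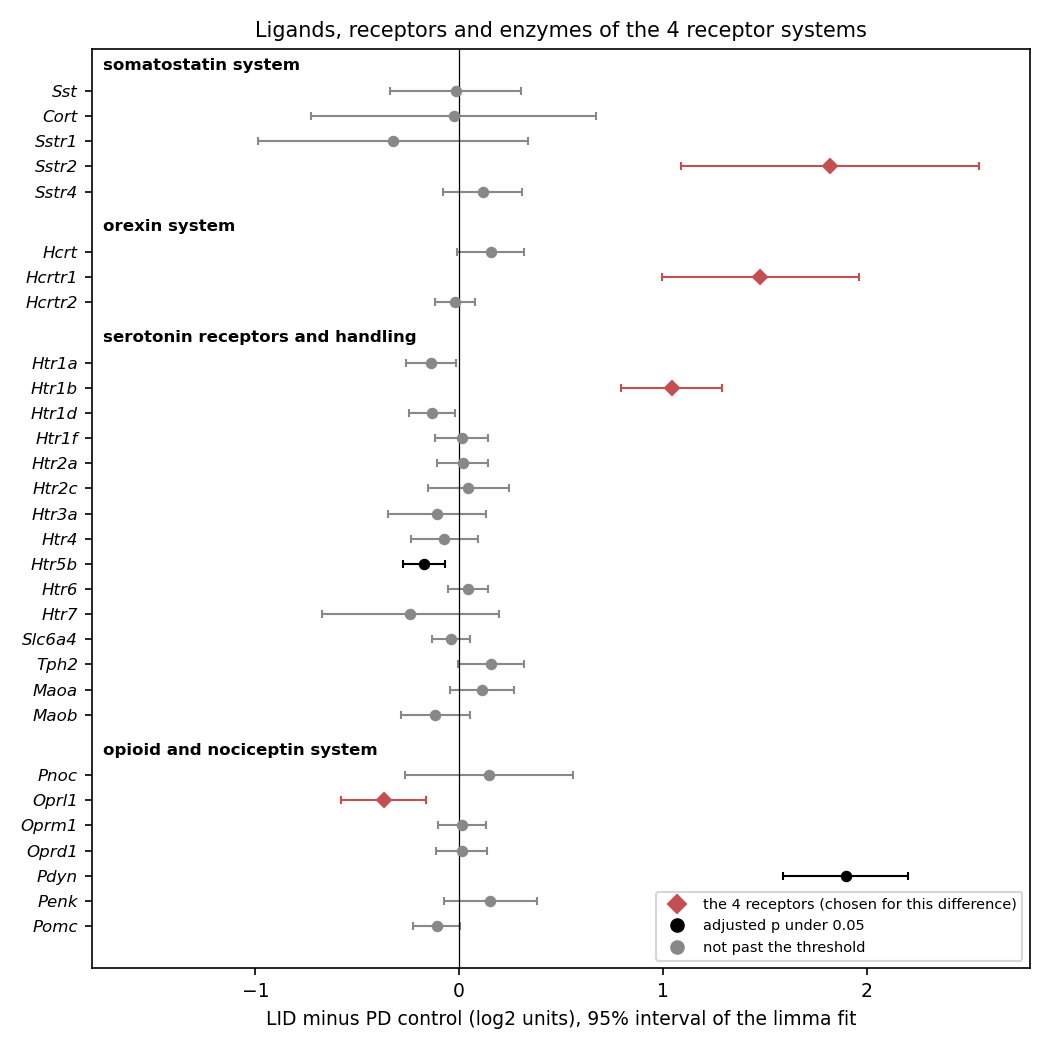
LID minus PD control in log2 units, with the 95% interval of the limma fit (n = 6 per group), for every measured gene of the somatostatin, orexin, serotonin and opioid lists. Red diamonds are the 4 receptors chosen for this difference, black points passed an adjusted p of 0.05 (Htr5b and Pdyn) and grey points did not.

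Genes that carry the signals of these receptors inside the cell were compared next. Of 29 measured G protein, phospholipase, potassium channel, RGS, receptor kinase and arrestin genes, 0 passed limma's threshold, where 13.5% of all genes passed. An unadjusted limma p under 0.05 was found for 3 of the 29. No share of all genes is given for that count, and nothing is read from it. The median difference was -0.020, against -0.0013 over all 9218 genes, and single genes lay between -0.39 (Gnai1, an inhibitory G protein subunit) and 0.18 (Rgs2, an inhibitor of Gq signalling). The 3 with an unadjusted p under 0.05 were Gnao1 (-0.20 ± 0.08), Rgs2 (0.18 ± 0.08) and Rgs17 (0.16 ± 0.06), and these, Gnai1 and the arrestins were chosen after their values were seen. Arrb1 and Arrb2, which encode the arrestins that bind activated receptors, differed by 0.07 ± 0.05 and 0.005 ± 0.06.

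Receptors of other peptides and monoamines gave 2 rises and no fall among 27 measured, with a median of 0.005, a share close to the 7.46% of all genes that rose. The D1 dopamine receptor gene Drd1 was 781 to 1226 in PD control and 1221 to 1548 in LID (0.57 ± 0.11, adjusted p = 0.0047). Mchr1, the receptor for melanin-concentrating hormone, another hypothalamic peptide, was dim and rose from 69.7 to 80.6 in PD control to 81.9 to 108.3 in LID (0.31 ± 0.07, adjusted p = 0.011). Its groups did not overlap. Neither call held without the 3 PD control arrays, where Drd1 differed by 0.37 (adjusted p = 0.051) and Mchr1 by 0.29 (adjusted p = 0.072).

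Over the 6 lists together, with the 4 receptors left out, 4 of 82 related genes passed (Pdyn, Drd1, Mchr1 and Htr5b), or 4.88%. Of all 9218 genes, the receptors included, 13.5% passed. Of these 82, 43 had a mean at or above the median probe and 2 of them passed (4.65%, against 18.4% of all genes that bright). Among the 39 dimmer ones 2 passed (5.13%, against 7.43%). Leaving out the 4 receptors, which were picked for their difference between groups, can lower the share of the related genes. The lists were drawn up with earlier results of these data known, and these shares are descriptions.

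The spread within a group was not used to pick the genes. In LID the 3 raised receptors were high and low on much the same arrays as Pdyn, with replicate 4 the highest for all of them and replicate 2 the lowest for Sstr2, Htr1b and Pdyn. Across the 6 LID arrays Pdyn correlated with Htr1b at r = 0.92 (rho = 0.94), with Hcrtr1 at r = 0.93 (rho = 0.83) and with Sstr2 at r = 0.84 (rho = 0.83). Unadjusted exact two-sided permutation p-values of r over all 720 pairings were 0.0069, 0.013 and 0.035, and those of rho were 0.017, 0.058 and 0.058. After adjustment over the 20 relations computed (6 receptor pairs and 4 pairs with Pdyn in each group), exact permutation p-values of r were 0.125, 0.125 and 0.14 and those of rho 0.23 for each. Without the 2 arrays farthest from the receptor's median, r fell to 0.70 for Htr1b, 0.52 for Hcrtr1 and 0.31 for Sstr2, so the last rests largely on those arrays. Among themselves, Hcrtr1 and Htr1b correlated at r = 0.88, Sstr2 and Hcrtr1 at 0.82 and Sstr2 and Htr1b at 0.80 (rho = 0.77, 0.89 and 0.71, and exact permutation p of r 0.032, 0.063 and 0.061, each 0.14 after adjustment). With those 2 arrays left out r was 0.86, 0.60 and 0.18. Tissue scores also varied among the LID arrays. Replicate 4 had the highest cortical score in LID (0.47) and the lowest choroid plexus and ependymal score (-0.86). Replicates 1 and 2 had the highest choroid plexus and ependymal scores in LID (0.89 and 0.48). The cortical score was lowest in replicates 5 and 6 (-0.73 and -0.58), which were not the lowest for Sstr2. The part of tissue make-up in these LID relations was not tested.

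Oprl1 did not follow Pdyn in LID (r = -0.10, rho = 0.03, exact permutation p = 0.86 and 1). In PD control, Htr1b correlated with Pdyn at r = 0.84 (rho = 0.60, exact permutation p = 0.056 and 0.24, adjusted 0.14 and 0.44), and r was 0.88 without the 2 farthest arrays. Both genes were lowest in PD control replicates 1, 3 and 6, the arrays with the lowest scores for striatal projection neurons. Htr1b was 62.5 to 65.0 there and 73.7 to 83.0 in the other controls, and Pdyn was 364 to 428 and 490 to 557. Sstr2 and Hcrtr1 gave r = -0.19 and -0.17 with Pdyn (rho = 0.09 and 0.03, exact permutation p of r 0.68 and 0.73), which turned to 0.77 and 0.16 without the 2 farthest arrays. Of the receptor pairs named above for LID, Sstr2 and Htr1b gave r = -0.61 in PD control, Hcrtr1 and Htr1b -0.44 and Sstr2 and Hcrtr1 0.21. Their rho was -0.66, -0.43 and 0.49. Exact permutation p of r was 0.22, 0.40 and 0.71, and r without the 2 farthest arrays was 0.33, -0.26 and 0.41. Htr1b and Oprl1 ran opposite ways in PD control, at r = -0.81 (rho = -0.83, exact permutation p = 0.025 and 0.058, adjusted 0.14 and 0.23), or -0.32 without the 2 farthest arrays. None of the 20 relations passed after adjustment by either measure, 5 had an unadjusted p under 0.05 by r and 2 by rho, and the smallest p that 6 arrays allow is 0.0028. Whether a relation differed between the groups was not tested, nor was the part of tissue make-up in the PD control relations.

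**Figure D4:**
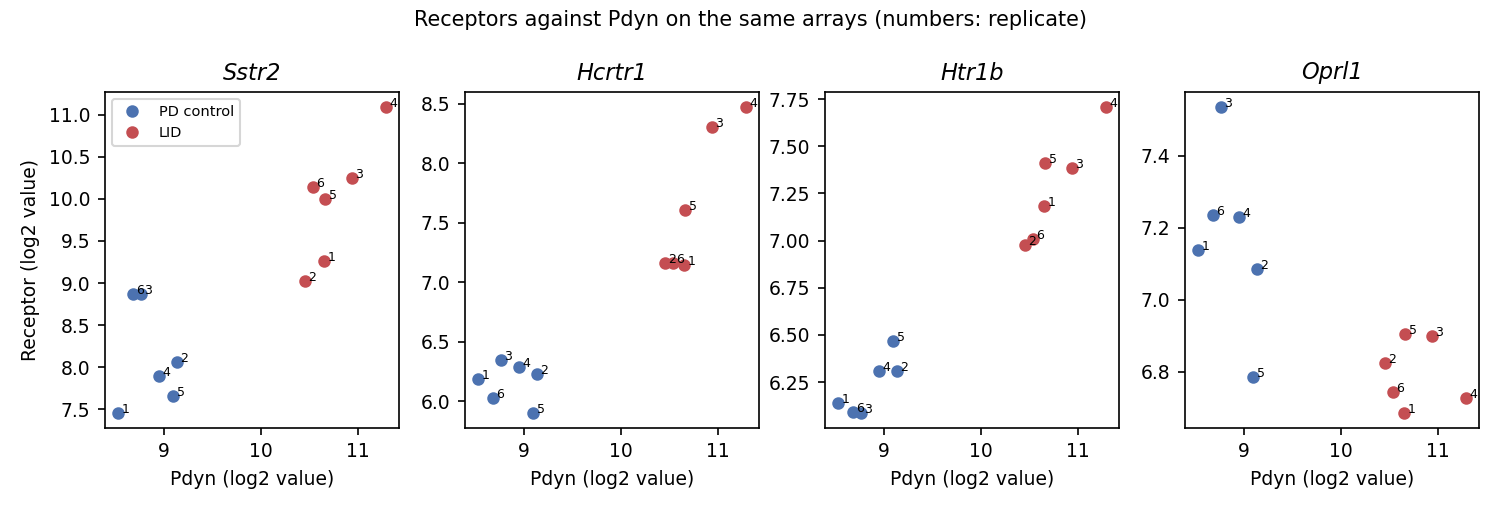
Log2 level of each receptor (vertical axes, each with its own range) against that of Pdyn (horizontal axis) on the same array, with replicate numbers, for PD control and LID. In LID, replicate 4 is at the top right for Sstr2, Hcrtr1 and Htr1b, while Oprl1 shows no such order (r = -0.10).

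For each receptor the 3 genes with the most similar deviations from the group mean over the 12 arrays were named, out of 5115 genes as bright as the median probe (5114 for Sstr2, itself 1 of them). Being the highest of so many, the values of r are descriptions. Closest to Sstr2 were Slit3, an axon guidance ligand (r = 0.94), the tubulin gene Tuba4a (0.91) and Vkorc1l1, a vitamin K epoxide reductase (0.91). Closest to Hcrtr1 were Cd24, a surface glycoprotein (0.90), the Polycomb gene Pcgf3 (0.89) and Bzw1 (0.88). Those nearest Htr1b were Strn, which encodes the calmodulin-binding scaffold striatin (0.92), the inositol phosphate kinase gene Ippk (0.91) and Sec61b, a subunit of the translocon of the endoplasmic reticulum (0.91). Each of these 9 genes also passed limma's threshold with a rise in LID, where 18.4% of all genes this bright passed in either direction, by 0.30 ± 0.08 for Tuba4a (adjusted p = 0.020) to 0.71 ± 0.10 for Cd24 (adjusted p = 0.00063). Without PD control replicates 1, 3 and 6 the calls of Pcgf3 (0.35, adjusted p = 0.058), Strn (0.41, adjusted p = 0.13) and Sec61b (0.31, adjusted p = 0.12) were lost. Those nearest Oprl1 were Vangl2, a gene of planar cell polarity (r = 0.94), Hfe, which takes part in iron sensing (0.94), and the cystatin gene Cst6 (0.93). Vangl2 fell by 0.44 on the log2 scale (SE 0.09, adjusted p = 0.0074), while Hfe (-0.04 ± 0.06) and Cst6 (-0.37 ± 0.14) did not pass.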

How the data were processed

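Total RNA of 12 rat striatal samples was labelled with biotin and hybridised to Illumina arrays, per the labels' protocols. The values deposited by the authors are linear intensities (36.5 to 22793) that they had made comparable between arrays, since the upper quartile was 425.689 on each. Software, background correction, probe filter and chip are not stated in the labels, and without detection p-values no probe was called undetected. The lowest maximum of any probe was 57.6. Whether genes without a named probe, such as Sstr3, Sstr5 and Oprk1, were on the chip and left out before deposit is not known. The number of arrays limits the precision.

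The intensities were background corrected with normexp (offset 50), quantile normalized and log2-transformed (limma 3.58.1, R 4.3.3); fold changes are on the scale of log2(corrected value + offset), which understates those of dim genes. Group was the only term of lmFit and eBayes, over all 13375 probes, with Benjamini-Hochberg adjustment and a threshold of 0.05, after a test on simulated data. The probe with the highest mean stood for a gene, and 9434 probes had 1 symbol in GEO's platform annotation (3941 had none, and 0 symbols changed on lookup by gene identifier in GRCr8).

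The 4 receptors and the 16 gene lists were chosen with earlier results of these data known. Named genes were the receptors, their measured ligands and family members, Pdyn, called list members, up to 6 called genes with the largest change in the transduction and other receptor lists, and the 3 genes most like each receptor. Correlations used exact permutation tests within groups. Alternatives were other scales and normalizations, a dim-probe filter, array weights, a block for the replicate number, another variance model, 1 probe per gene, and arrays left out. No pair of arrays held identical values.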

Additional observations from a re-analysis of the deposited data

Results flagged for a closer look

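Of 80 sets of 6 arrays examined for a single array far from the rest (40 genes in each group), 2 held one, where chance gives about 1 in 20. Hcrt was at a log2 value of 6.17 in PD control replicate 1, where the other 5 controls lay between 5.68 and 5.82, and this is the array with the highest choroid plexus and ependymal score. Htr4, a serotonin receptor gene with a dim signal, was at 5.77 in LID replicate 6, against 5.92 to 6.00 in the other 5 LID arrays. None of the 4 receptors was flagged in this way in either group.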

How the results depend on the processing

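Each receptor kept its direction under every alternative that gave it a value. Leaving out 1 array at a time, the log2 difference was 1.59 to 2.01 for Sstr2, 1.31 to 1.58 for Hcrtr1, 0.96 to 1.10 for Htr1b and -0.45 to -0.30 for Oprl1. With an offset of 1 the differences of Hcrtr1 (2.76), Htr1b (2.03) and Oprl1 (-0.60) moved by more than the residual SD pooled over both groups (for Oprl1 by less than the SD of PD control alone), as a smaller offset compresses dim values less. Probes passing the threshold numbered 1606 and 1112 to 1556 without 1 array. Without PD control replicates 1, 3 and 6 they numbered 1059, in a fit with 3 arrays fewer. Of the 82 related genes 4 passed, 3 to 5 without 1 array, and 2 when only probes at or above the median in 6 arrays were tested, which leaves out Mchr1 and Htr5b, and also Htr1b and Oprl1. The sample titles number all 12 arrays in 1 series, and the LID arrays were renumbered from 1 to 6 here in that order. Deviations of same-numbered arrays of the 2 groups gave r = -0.29 to 0.48 over 6 pairs, 2 of them over 0.1. Only 1 of 6 PD control arrays, replicate 1 (r = 0.48), matched its own number best. The arrays were treated as unpaired in the main fit, although 6 pairs cannot exclude a pairing. With the replicate number as a block 1332 probes passed, the differences were the same and the call of Htr5b was lost (adjusted p = 0.080). Of 775 values of named genes under alternatives, 757 kept their side of the threshold, 12 lost it, 6 gained it and 0 called genes turned direction. Dim signal limits what Hcrtr1, Htr1b and most of their family members could show below their PD control level.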
